A study of Homo sapiens with 15 samples.

Results

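RNA was measured by polyA RNA sequencing in HEK293FT cells, a fast-growing human embryonic kidney line, after CRISPR activation aimed at the long non-coding RNA labelled TrEx108. The 3 libraries titled trex0108 were set against the 3 control libraries titled scramxxx, which make 6 of the 15 libraries of the series. Both groups carried the same activator plasmids, dCas9-VP64 and an MS2-p65-HSF1 fusion, and a pool of 5 guide RNAs. The trex0108 guides sat 50 to 450 bp before the start of their long non-coding RNA, and the scramxxx guides were non-targeting. Per the labels, puromycin at 2 ug/mL was given at 24 hours after transfection, RNA was taken at 48 hours, and libraries were made as biological triplicates. All 11230 rows of the authors' deposited table were compared, each row being 1 gene or assembled locus. The table gives 1 mean normalised count per group with no value per library, so the means below have no SD and the sequencing depth behind them is unknown.

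In CRISPR activation a cleavage-dead Cas9 carries transcription activators to a guide's target without cutting it, and placing guides just upstream of a start site raises transcription from it. Long non-coding RNAs can act on genes beside their own locus or elsewhere in the nucleus, and activators at one promoter can also reach a second promoter nearby. Many genes of differentiated tissues, such as muscle myosins, liver enzymes or skin proteases, are nearly silent in a kidney line, so a small absolute gain gives a large fold in them. The other 9 libraries targeted 3 further RNAs and are named by their titles trex4039, trex5008 and trex8168. They share the scramxxx libraries, so their values are set beside those of trex0108 as means only. For trex5008 and trex8168 the titles and the target labels carry exchanged numbers, which does not touch the trex0108 libraries. HEK-typical transcripts were listed at similar means: KRT8, an epithelial keratin, stood at 4849 in trex0108 and 4548 in scramxxx, and NEFM, a neurofilament subunit, at 5626 in trex0108 and 5358 in scramxxx.

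The response in trex0108 was one-sided. A row was called where the authors' deposited table gave an adjusted p under 0.05, and 634 rows (5.65% of those listed) were called higher and 28 (0.249%) lower. Differences in size are given as the log2 ratio, log2((trex0108 mean + 1)/(scramxxx mean + 1)), computed from the authors' means. Of the rows called higher, 235 (2.09% of those listed) had a log2 ratio of at least 1, 109 (0.971%) of at least 2, 38 of at least 3 and 20 of at least 4. Of the rows called lower, 2 had a log2 ratio of -1 or less. In bulk RNA a large gain in a few cells and a small gain in all cells cannot be told apart. The median log2 ratio was 0.67 over the rows called higher, -0.32 over those called lower and 0.02 over all listed rows. Small rises made up much of the count, and 264 of the 634 had a log2 ratio under 0.5. Rows entered the list through an adjusted p under 0.1 in 1 or more of the 4 comparisons, so these shares refer to the list and not to the genome. A total of 302 of the 634 were listed through trex0108 alone and 332 through another comparison as well.

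**Figure D1:**
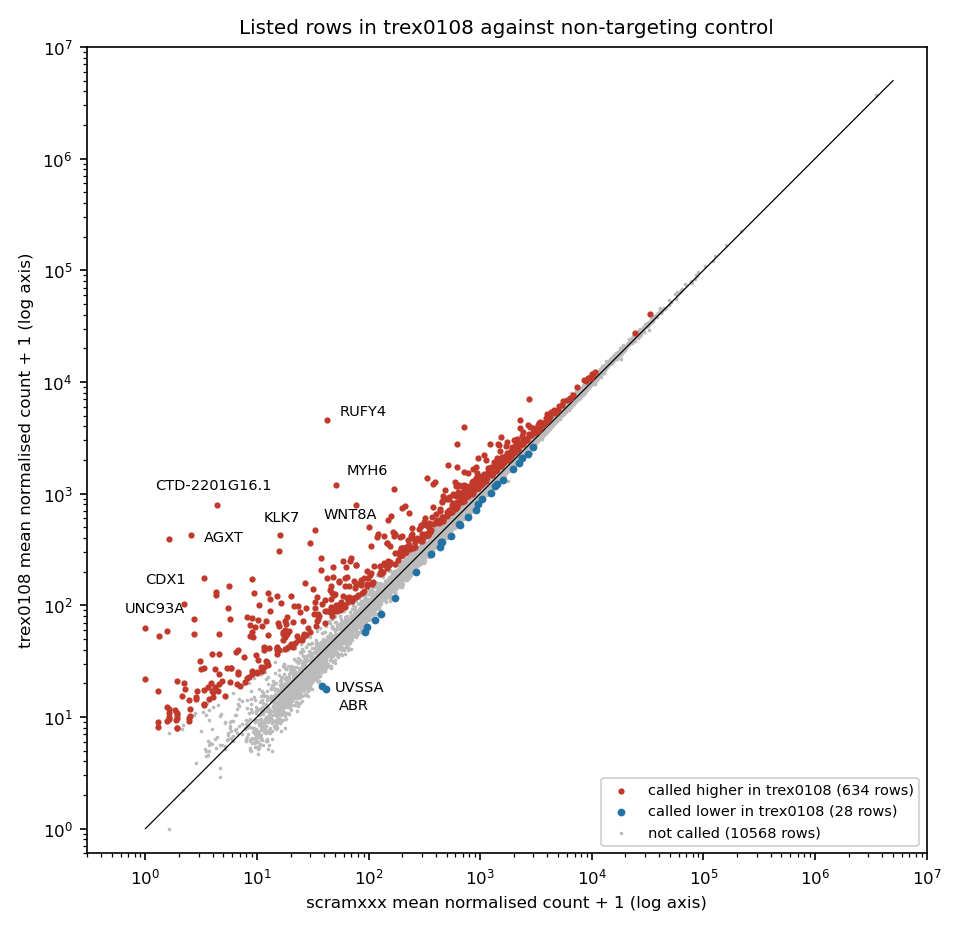
Authors' mean normalised count in trex0108 (vertical) against scramxxx (horizontal) for the 11230 listed rows, 1 added to each, both axes logarithmic. The 634 red rows called higher fan out above the diagonal at low control means, and the 28 blue rows called lower lie close below it, apart from ABR and UVSSA.

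The rises differed in size with the level in control cells. The median log2 ratio of the rows called higher was 2.38 at scramxxx means of 1 to 10 (77 rows), 0.91 at 50 to 100 (45 rows), 0.42 at 500 to 1000 (93 rows) and 0.19 above 5000 (19 rows). A small rise of a row with few reads is less likely to pass the test, which can shape these medians. The share called higher can be read over rows listed through another comparison, which did not enter the list by their call in trex0108. It was 1 of 157 at scramxxx means of 1 to 10, 16 of 1018 at 10 to 50, 73 of 1353 at 500 to 1000 and 16 of 1292 above 5000. At scramxxx means of 1 to 10, the rises are thus in the list almost entirely through trex0108 itself, so the list gives no share of such rows that rose. By gene type, 411 of 7447 protein-coding rows were called higher and 17 lower. The share called higher was 8.84% among antisense RNAs (32 of 362) and 9.42% among lincRNAs (18 of 191), the long non-coding RNAs that lie between genes. Loci without an annotated type had 149 of 2831 rows called higher (5.26%). The shares by type include rows listed through trex0108 alone, so the way rows entered the list can shape them. Over chromosomes 1 to 22 and X, the share called higher ran between 2.81% on chromosome 16 and 8.65% on chromosome 19, where 71 of 821 listed rows rose and 0 fell.

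The largest rise of a protein-coding row was that of AGXT, the liver peroxisomal enzyme that detoxifies glyoxylate (chromosome 2, 241787242 to 241824829, hg19). Its mean was 422 in trex0108, 3.53 in trex4039, 2.77 in trex5008, 2.55 in trex8168 and 1.56 in scramxxx, a log2 ratio of 7.37 for trex0108. The authors' deposited table gave it an adjusted p of 4.49e-205, and a log2 fold change of 4.21. RUFY4, a RUN and FYVE domain protein studied in dendritic cell autophagy (chromosome 2, 218899564 to 218955409), reached the highest level of the leading rows. Its mean was 4548 in trex0108, 27.4 in trex4039, 28.7 in trex5008, 38.7 in trex8168 and 41.5 in scramxxx, a log2 ratio of 6.74. The authors' deposited table listed its adjusted p as 0 and its log2 fold change as 5.23. In all 662 called rows the deposited log2 fold change was nearer to 0 than the log2 ratio.

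The other 10 of the 12 leading coding rises belonged to varied tissues. CDX1, a homeobox factor of the intestine (chromosome 5, 149546344 to 149564120), had a mean of 176 in trex0108, against 2.33 in scramxxx, and its means in the other targets ran between 1.64 and 3.40. FGF21, a hormone that the liver releases on fasting, stood at 130.3 in trex0108 and 3.32 in scramxxx, with 4.38 to 6.397 in the other targets. CEBPE, a transcription factor of maturing granulocytes, stood at 147 in trex0108 and 4.63 in scramxxx, with 2.67 to 4.87 in the other targets. The authors' deposited table gave adjusted p of 2.16e-87 for CDX1, 7.71e-53 for FGF21 and 2.54e-67 for CEBPE. For each of these genes the mean in trex0108 lay far above the means of the other 4 groups, which stood close together.

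The remaining 7 coded for proteases, structural proteins, a signalling ligand and others. KLK7, a serine protease of the outer skin, had a mean of 429 in trex0108 and 15.2 in scramxxx, and KRT82, a hair keratin, had 75.0 in trex0108 and 1.72 in scramxxx. CHI3L1, a secreted chitinase-like glycoprotein, stood at 123 in trex0108 and 3.30 in scramxxx. MYH6, the alpha myosin heavy chain of the heart, stood at 1184 in trex0108 and 50.1 in scramxxx, with 47.8 to 52.0 in the other targets. WNT8A, a secreted WNT ligand of the early embryo, had 474 in trex0108 and 31.9 in scramxxx, and BZRAP1, a binding protein of the mitochondrial translocator protein, had 306 in trex0108 and 14.7 in scramxxx. Their log2 ratios were 4.73 for KLK7, 4.80 for KRT82, 4.85 for CHI3L1, 4.54 for MYH6, 3.85 for WNT8A and 4.29 for BZRAP1. UNC93A, a membrane protein, had a mean of 61.6 in trex0108 and 0.373 in trex5008 and was listed at 0 in trex4039, trex8168 and scramxxx, so no fold is given for it.

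Among rows of other types, the largest log2 ratio, 7.93, was that of CATG00000005887.1, an unannotated locus on chromosome 1 (84160073 to 84181406). Its mean was 393 in trex0108 and 0.616 in scramxxx, and the other targets ran between 0.373 and 1.17. The lowest nonzero scramxxx means of the table take 3 values, 0.284, 0.289 and 0.327, which is what 1 read in each of 3 libraries would give, and the mean of CATG00000005887.1 equals 2 such reads within 0.0005. Its ratio of means is then 638, with a 95% exact Poisson interval of 177 to 5268 that covers counting error in the control only. CTC-529P8.1, a lincRNA of chromosome 5, stood at 51.9 in trex0108 and 0.327 in scramxxx, which equals 1 read, a ratio of 159 with an interval of 28.5 to 6281. CATG00000110053.1 stood at 58.4 in trex0108 and 0.574 in scramxxx, which equals 2 reads, a ratio of 102 with an interval of 28.2 to 841. The wide intervals show that the size of these folds is set by a handful of control reads, while the level in trex0108 is not. CATG00000042034.1 stood at 20.7 in trex0108 and was listed at 0 in scramxxx.

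Antisense RNAs and longer loci were also in this group. CTD-2201G16.1, an antisense RNA that overlaps MYH6, stood at 797 in trex0108 and 3.40 in scramxxx, a log2 ratio of 7.50. RP13-638C3.4, an antisense RNA inside FOXK2 on chromosome 17, stood at 101 in trex0108 and 1.23 in scramxxx, but also at 4.41 to 4.90 in the other targets, so the scramxxx mean is the low one there. FOXK2 itself, a forkhead factor, stood at 6311 in trex0108 and 6293 in scramxxx. RP11-521D12.5, a lincRNA of chromosome 2, stood at 54.0 in trex0108 and 1.71 in scramxxx, and XLOC_009339, on chromosome 11, at 169 in trex0108 and 7.93 in scramxxx. In both, scramxxx was again the low mean, with 3.12 to 4.81 in the other targets for RP11-521D12.5 and 10.1 to 14.5 for XLOC_009339. For RP11-521D12.5 the deposited log2 fold change was only 0.507, beside a log2 ratio of 4.34. Of the 12 protein-coding and 8 other rows with the largest log2 ratios, 0 were called in another comparison, and the lowest ratio of the trex0108 mean to the highest mean of the other 4 groups was 11.2. These rows were ranked by the trex0108 comparison itself, so that contrast with the other targets is a description. The sources used here do not say which row is TrEx108, and none of these rows is taken to be it.

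**Figure D2:**
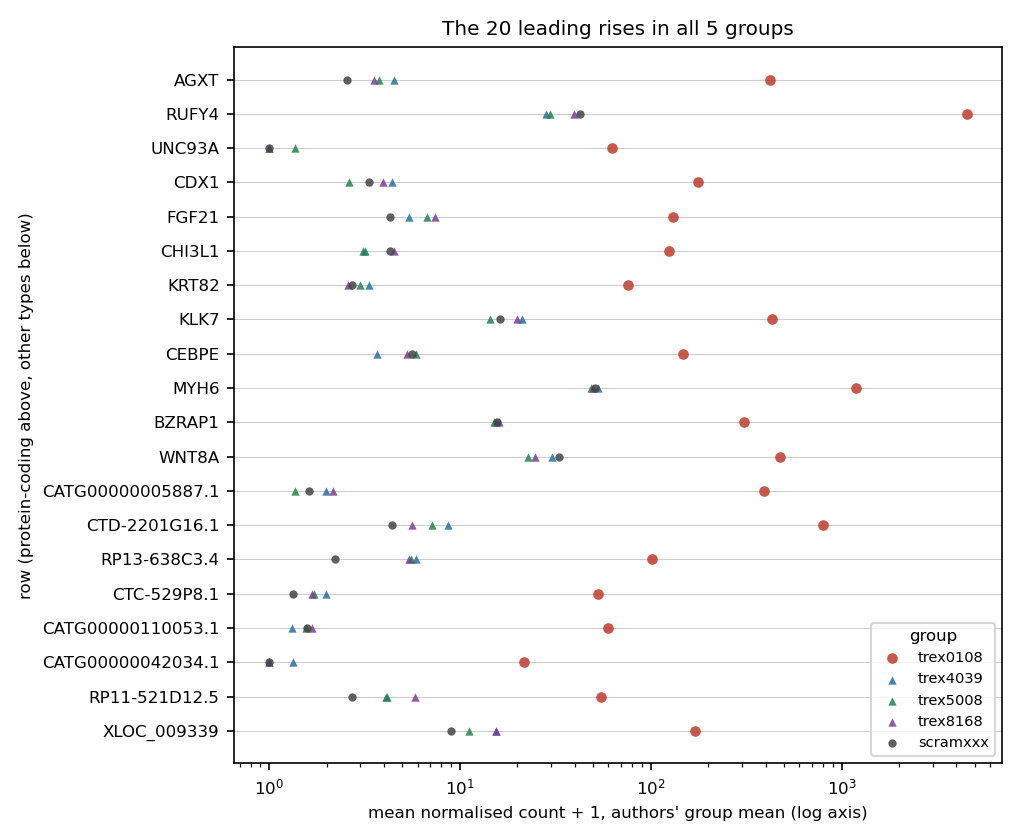
Authors' mean normalised counts plus 1, on a logarithmic axis, of the 20 leading rises in trex0108, in the 3 other target groups and in scramxxx. In every row the red trex0108 point stands alone on the right, and the means of the other 4 groups lie together, between listed values of 0 and 52.0.

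The annotated start regions of the strongly risen genes had low CpG ratios, CpG being the dinucleotide that is dense in the promoters of most widely expressed genes. A start window of 300 bases (250 before and 50 after the annotated start, RefSeq, GRCh38.p14) was matched by symbol to 292 of the 634 rows called higher and to 5306 of the 11230 listed rows. A symbol with several rows was used once, which left 291 symbols called higher of 5175. The median ratio of observed to expected CpG was 0.285 in the windows of the 32 genes with a log2 ratio of at least 2, 0.496 in those of the 47 genes from 1 to 2, 0.704 in those of the 212 genes under 1, 0.817 in those of listed genes not called higher, and 0.579 over all 35116 windows. Among listed genes with a scramxxx mean under 50, the median was 0.284 for those with a log2 ratio of at least 2, and 0.725 for those not called higher. Low rows that rose are listed mostly through trex0108 and uncalled ones mostly through another target, so those groups were chosen differently. Among genes listed through trex0108 alone, the median was 0.291 for the 29 with a log2 ratio of at least 2, 0.459 for the 29 from 1 to 2, 0.759 for the 58 called higher with a ratio under 1, and 0.790 for the 27 not called higher. These bands were not matched for control level, and its part in the medians was not tested. Of the 32 genes with a log2 ratio of at least 2, 28 had a scramxxx mean under 50. The windows of AGXT, the largest coding rise, and of PPP1R15A, a stress-induced phosphatase subunit with a log2 ratio of 0.32, are printed to show the range, with every CpG in capitals. The AGXT window lies at chr2:240868574-240868873 on the plus strand and holds 9 CpG, and the PPP1R15A window at chr19:48872171-48872470 on the plus strand holds 24.
AGXT: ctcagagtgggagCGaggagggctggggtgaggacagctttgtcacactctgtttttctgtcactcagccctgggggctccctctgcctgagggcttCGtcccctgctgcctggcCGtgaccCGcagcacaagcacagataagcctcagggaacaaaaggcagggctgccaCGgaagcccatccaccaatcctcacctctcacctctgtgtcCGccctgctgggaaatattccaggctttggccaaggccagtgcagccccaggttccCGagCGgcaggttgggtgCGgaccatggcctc
PPP1R15A: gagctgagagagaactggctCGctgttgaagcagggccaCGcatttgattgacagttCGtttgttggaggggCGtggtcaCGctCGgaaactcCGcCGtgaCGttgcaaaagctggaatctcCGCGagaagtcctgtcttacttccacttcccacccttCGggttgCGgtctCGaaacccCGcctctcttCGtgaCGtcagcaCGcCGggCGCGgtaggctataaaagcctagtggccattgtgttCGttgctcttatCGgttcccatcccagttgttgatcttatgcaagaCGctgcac

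A TATA box is the other common core element of regulated promoters, and the windows were searched for TATAAA on either strand. It was found in 18.9% of the windows of the genes with a log2 ratio of at least 2 (7 of 37 windows), in 4% and 4.82% of those with ratios from 1 to 2 and under 1, in 6.65% of windows of listed genes not called higher, and in 11.5% of all 35116 windows. At scramxxx means under 50 the shares lay closer, at 15.2% for log2 ratios of at least 2 (5 of 33 windows) and 10.5% for genes not called higher (32 of 305 windows). MYH6 and CHI3L1 hold it close to the start, and both windows are printed with the motif in capitals. Its first base lies at position -30 in MYH6 and at -27 in CHI3L1, counting the annotated start as 0. Among other leading coding rises, KRT82 holds it at -191, and the windows of RUFY4, CEBPE, KLK7, WNT8A and UNC93A do not hold it. The PPP1R15A window printed above, for a log2 ratio of 0.32, also holds it close to the start, unmarked there. The MYH6 window is chr14:23408224-23408523 and the CHI3L1 window chr1:203186655-203186954, both on the minus strand. A match of these letters is a description and not evidence of a working site.
MYH6: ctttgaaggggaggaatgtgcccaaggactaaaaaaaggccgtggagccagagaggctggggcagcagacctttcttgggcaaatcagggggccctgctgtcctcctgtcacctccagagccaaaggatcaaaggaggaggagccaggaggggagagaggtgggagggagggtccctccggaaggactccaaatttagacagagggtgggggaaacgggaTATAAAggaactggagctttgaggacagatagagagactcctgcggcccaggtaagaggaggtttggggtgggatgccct
CHI3L1: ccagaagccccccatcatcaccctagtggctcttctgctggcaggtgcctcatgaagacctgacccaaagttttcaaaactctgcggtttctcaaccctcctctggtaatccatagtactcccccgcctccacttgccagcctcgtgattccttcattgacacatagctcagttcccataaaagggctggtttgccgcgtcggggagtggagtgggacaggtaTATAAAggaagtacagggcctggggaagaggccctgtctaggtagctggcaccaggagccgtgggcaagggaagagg

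Many of the rises lay close to one another on the chromosomes. Of the 634 rows called higher, 184 (29.0%) had another row called higher within 100 kb, measured end to start. Of the 10596 other listed rows, 1352 (12.8%) had such a row within that distance. Rows that overlap can share reads, and the sources used here do not say whether reads were counted by strand. With overlapping rows merged, 106 of 587 loci (18.1%) had another within 100 kb, and of the 6754 merged loci of the other rows that overlap none of them, 681 did (10.1%). A total of 19 chains of at least 3 rows called higher, with gaps of up to 100 kb, held 68 rows, and 8 of the 19 were on chromosome 19. That chromosome held 71 of the 634 rows called higher and 821 of the 11230 listed rows. Whether closer spacing of its rows gives these chains was not tested. In these 19 spans, chosen for rows called higher, 0 listed rows were called lower. Over all listed rows only 0.249% were called lower, so that 0 says little. After merging, 11 of the chains kept at least 3 separate loci.

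The rise of neighbours was short in range. The 109 rows with a log2 ratio of at least 2 were taken as strong rises, and the other 11121 listed rows were grouped by their distance to the nearest one. Of the 37 rows that overlapped a strong rise, 12 were called higher (32.4%), and of the 27 within 10 kb without overlap, 7 were (25.9%). The share was 8.14% at 10 to 50 kb, 5.88% at 50 to 100 kb, 6.12% at 100 to 250 kb and 4.44% beyond 1000 kb (426 of 9586 rows). Over all 11121 rows it was 4.72%. Within 10 kb or overlapping, 19 of 64 rows were called higher (29.7%) and 0 lower, but 40 of 64 (62.5%) had a log2 ratio above 0, near the 58.7% of rows beyond 1000 kb. Counting only rows listed through another comparison, which were not chosen for a change in trex0108, the share within 10 kb or overlapping was 21.8%. Beyond 1000 kb it was 2.84%. The 21.8% joins 8 of 32 rows that overlapped a strong rise (25%) and 4 of 23 within 10 kb without overlap (17.4%).

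**Figure D3:**
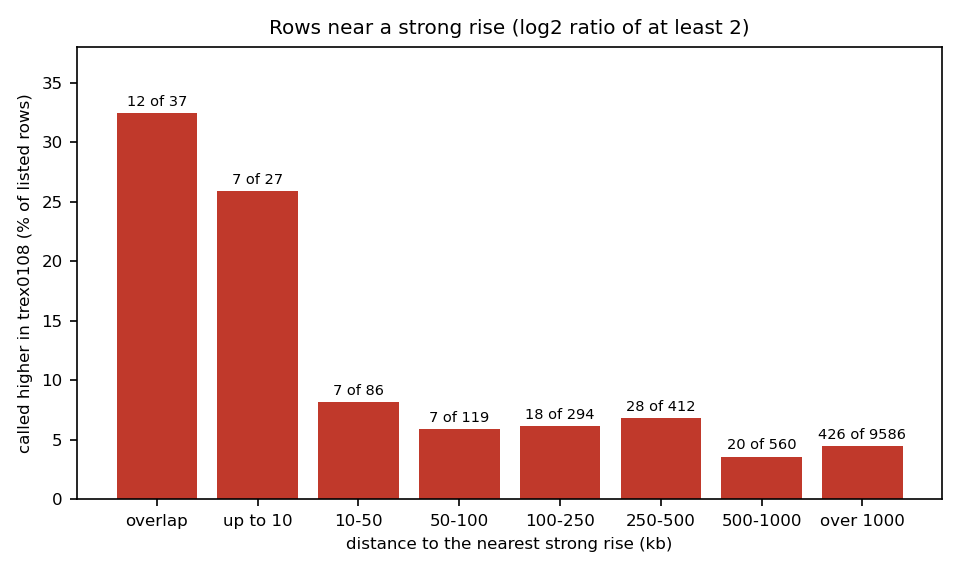
Percentage of listed rows called higher in trex0108 (vertical axis, from 0) by distance in kb to the nearest strong rise (horizontal axis); numbers above the bars are rows called higher of rows in the bin. The share is 32.4% and 25.9% in the first 2 bins and between 3.57% and 8.14% in the others.

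Around the 20 leading rows, 18 had a listed neighbour within 100 kb, and of the 56 neighbour entries, which count a row once for each leading row it lies near, 22 were called higher and 0 lower. Over all listed rows, 5.65% were called higher and 0.249% lower. A neighbour can be listed because it was called in trex0108, as low rows that rose mostly were. The list itself can therefore raise the count of 22. The 22 include MYH6 and CTD-2201G16.1, leading rows that are each other's neighbours. They also include CXCR2P1, XLOC_004320 and XLOC_053027, which overlap a leading row and can share its reads. C2orf54, 522 bases beyond the end of AGXT and tail to tail with it, stood at 25.8 in trex0108 and 2.13 in scramxxx, whereas KIF1A, a neuronal kinesin 26.4 kb on the other side, stood at 4039 in trex0108 and 4107 in scramxxx. CXCR2P1, a chemokine receptor pseudogene that overlaps RUFY4, stood at 127 in trex0108 and 8.34 in scramxxx. SLC7A8, an amino acid transporter 4976 bases from CEBPE, stood at 3112 in trex0108 and 2114 in scramxxx, and its adjusted p in the authors' deposited table was 3.15e-18. SLC6A7, a proline transporter 5508 bases from CDX1, stood at 17.9 in trex0108 and 6.01 in scramxxx, and its adjusted p in the authors' deposited table was 0.0267. Near WNT8A, 4 listed neighbours within 100 kb were not called, among them the mitotic kinesin KIF20A at 3618 in trex0108 and 3652 in scramxxx. TTLL2, 8.72 kb from UNC93A, had 6.87 in trex0108 and 1.137 in scramxxx and was not called; its adjusted p in the authors' deposited table was 0.0994.

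The longest chains, with 4 or 5 rows, numbered 7. On chromosome 19 the FGF21 chain (49250769 to 49387878) held 5 of the 8 listed rows in its span. FUT1, the fucosyltransferase that makes the H antigen, stood at 629.6 in trex0108, 189 in trex4039, 181 in trex5008, 216 in trex8168 and 158 in scramxxx. FUT1 was also called higher in trex8168, with a log2 ratio of 0.45, beside 1.99 in trex0108. HSD17B14, a steroid dehydrogenase, stood at 438 in trex0108 and 121 in scramxxx, and CATG00000041270.1, which lies within it, at 176 in trex0108 and 40.9 in scramxxx. PPP1R15A stood at 4118 in trex0108 and 3300.2 in scramxxx, a log2 ratio of 0.32. Between them BCAT2, a branched-chain aminotransferase, stood at 3034 in trex0108 and 2818 in scramxxx and was not called. PLEKHA4, between HSD17B14 and PPP1R15A, stood at 907 in trex0108 and 910 in scramxxx and was not called either. FUT1 and FGF21 are transcribed away from each other, and their RefSeq starts lie 166 bases apart. Of the 300 bases of the FGF21 window, the 265 in capitals also lie in the FUT1 window, read on the other strand (FGF21 at chr19:48755274-48755573, plus strand; FUT1 at chr19:48755309-48755608, minus strand).
FGF21: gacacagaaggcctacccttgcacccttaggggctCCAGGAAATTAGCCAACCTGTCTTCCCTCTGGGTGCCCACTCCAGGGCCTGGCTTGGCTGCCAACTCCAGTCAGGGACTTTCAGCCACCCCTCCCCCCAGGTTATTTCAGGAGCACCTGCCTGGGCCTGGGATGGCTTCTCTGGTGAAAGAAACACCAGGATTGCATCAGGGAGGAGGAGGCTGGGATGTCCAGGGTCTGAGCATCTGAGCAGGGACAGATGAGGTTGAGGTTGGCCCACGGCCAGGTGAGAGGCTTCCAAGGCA

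The kallikrein chain on chromosome 19 (51407582 to 51588123) held 4 risen rows, all 4 of those listed. KLK7 lay between smaller rises of its paralogs: KLK4, an enamel protease, stood at 91.5 in trex0108 and 50.3 in scramxxx, and KLK14, a skin protease, at 109.6 in trex0108 and 39.5 in scramxxx. The protein-coding locus XLOC_032186 between them stood at 149 in trex0108 and 60.8 in scramxxx. The pseudogene KLKP1, 79.8 kb from KLK7, stood at 158 in trex0108 and 116 in scramxxx and was not called. The log2 ratios of the risen rows thus ran between 0.85 for KLK4 and 4.73 for KLK7. Reads of paralogous kallikrein genes and of their pseudogene can be split between copies, which the table does not resolve.

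A chain near the end of chromosome 19 (55795340 to 55891632) held 5 of 7 listed rows. BRSK1, a brain kinase, stood at 3206 in trex0108 and 1541 in scramxxx, and TMEM190, a small membrane protein, at 262 in trex0108 and 36.1 in scramxxx. FAM71E2 stood at 77.6 in trex0108 and 7.15 in scramxxx, the antisense RNA CTD-2105E13.15 at 93.8 in trex0108 and 4.49 in scramxxx, and the locus XLOC_032320 at 789.5 in trex0108 and 75.4 in scramxxx. TMEM190 overlaps both FAM71E2 and CTD-2105E13.15. RPL28, a ribosomal protein gene 3645 bases from the nearest strong rise, stood at 20718 in trex0108 and 18939 in scramxxx and was not called. XLOC_032320 was also called higher in trex4039, at 101, and in trex8168, at 110, while TMEM190 was called lower in trex4039, at 21.1.

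The BCL3 chain (chromosome 19, 45240189 to 45436215) held 5 of 8 listed rows with smaller ratios. BCL3, an IkB-family coactivator, stood at 411 in trex0108, against 119 in trex4039, 134 in trex5008, 147 in trex8168 and 188 in scramxxx. The adhesion molecule BCAM stood at 2928 in trex0108 and 1753 in scramxxx, and the apolipoprotein gene APOC1 at 943 in trex0108 and 459 in scramxxx. Its pseudogene APOC1P1, whose reads may be exchanged with APOC1, stood at 117 in trex0108 and 33.6 in scramxxx, and CATG00000041150.1, inside BCL3, at 17.7 in trex0108 and 2.62 in scramxxx. Another chain (52185937 to 52232946) held the lincRNA row listed as hsa-mir-125a, at 250 in trex0108 and 58.1 in scramxxx. Beside it LINC00085 stood at 936 in trex0108 and 664 in scramxxx, and was lower than control in each of the other targets, at 334 in trex4039, 409 in trex5008 and 415 in trex8168. HAS1, a hyaluronan synthase, stood at 9.88 in trex0108 and 0.905 in scramxxx, which equals 3 control reads, and CATG00000039745.1 at 8.78 in trex0108 and 1.48 in scramxxx.

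Outside chromosome 19, the chromosome 14 chain (23845675 to 24025146) held MYH6, CTD-2201G16.1, CATG00000018307.1 at 16.04 in trex0108 and 0.289 in scramxxx, and the zinc finger gene ZFHX2 at 1945 in trex0108 and 1522 in scramxxx. All 4 listed rows of that span were called higher. The chromosome 1 chain (149679996 to 149859648) held 5 of the 7 listed rows in its span. It covered histone genes of the HIST2 group, which encode replication-type histones. HIST2H4A stood at 454 in trex0108 and 164 in scramxxx, HIST2H4B at 2769 in trex0108 and 1234 in scramxxx, and the pseudogene HIST2H2BD at 339 in trex0108 and 156 in scramxxx. RP11-196G18.24 stood at 201 in trex0108 and 95.7 in scramxxx, and the locus XLOC_004882, which spans all of them, at 1475 in trex0108 and 1080.5 in scramxxx. The start windows of HIST2H4A and HIST2H4B differ at 0 of 300 bases, and reads of such copies cannot be placed with certainty. Because all 5 rows overlap the spanning locus, the chain counts as 1 locus after merging.

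**Figure D4:**
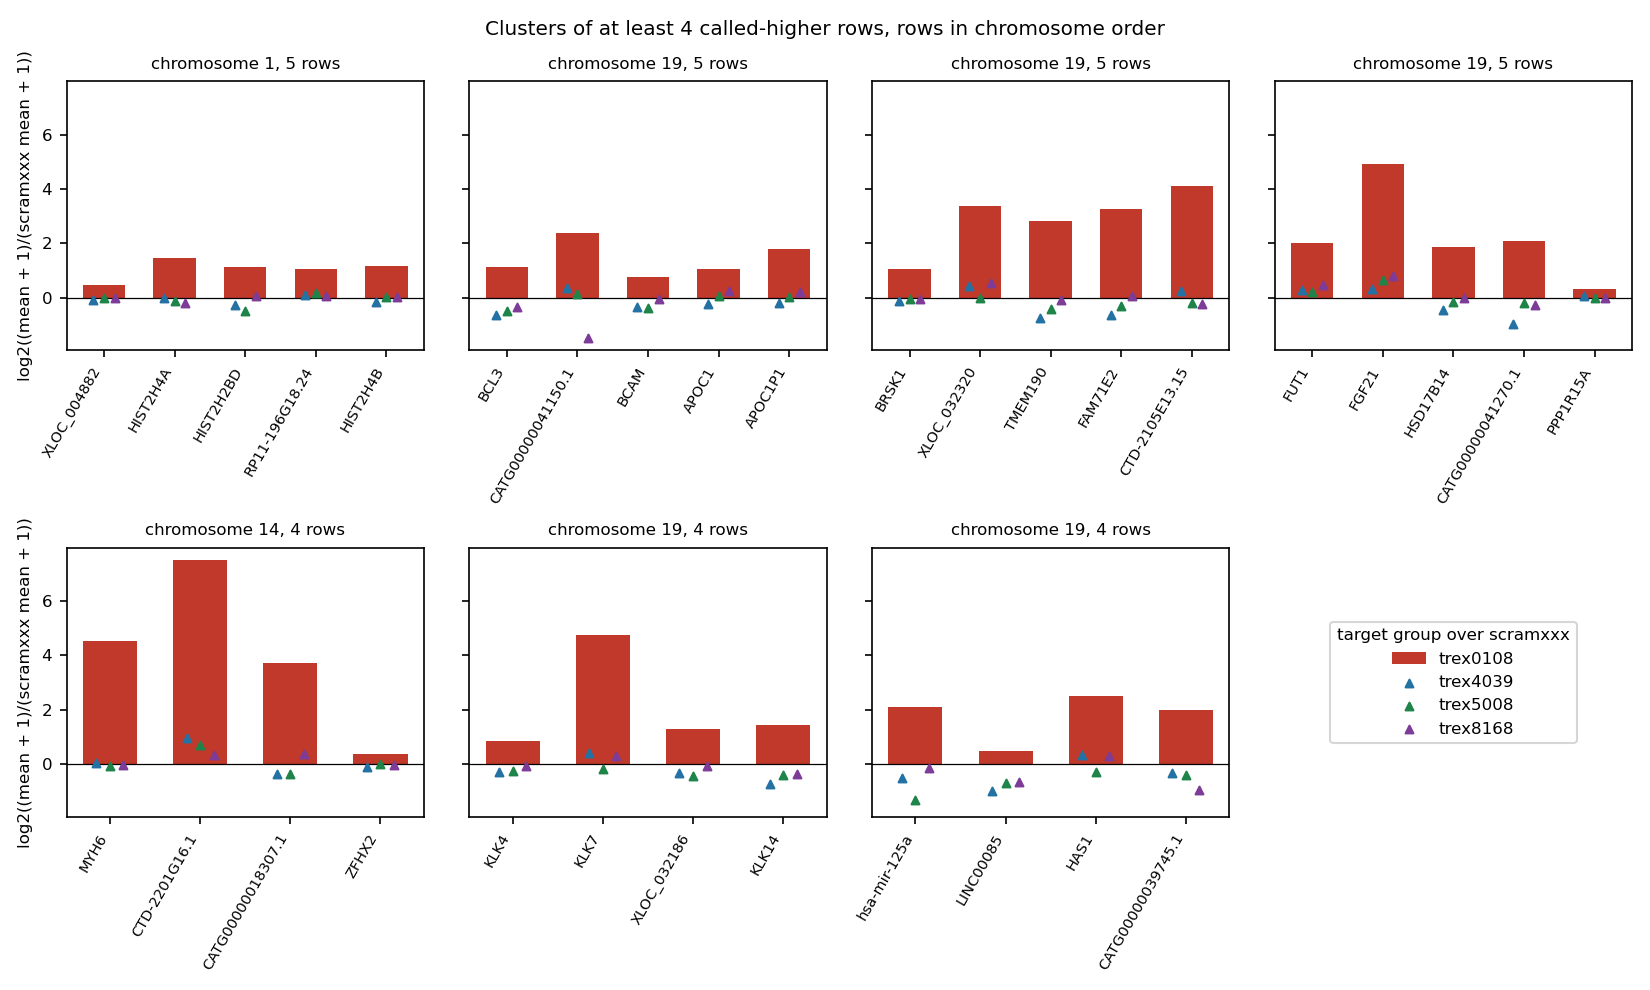
Log2((group mean + 1)/(scramxxx mean + 1)) of the rows in the 7 chains of 4 or 5 rows called higher in trex0108, in chromosome order; red bars are trex0108 and triangles the other 3 targets. The bars run between 0.32 for PPP1R15A and 7.50 for CTD-2201G16.1.

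Tissue markers that rose numbered at most 2 in any 1 list. The 22 tissue and cell type lists held 327 genes, of which 54 were listed, 14 were called higher (25.9% of those listed) and 0 lower, beside 5.65% called higher over all listed rows. These lists were chosen with earlier results known, and a marker can be in the list because it was called in trex0108. The median log2 ratio of the 54 was 0.05, close to the 0.02 over all listed rows. A called member was found in 11 lists, more than 1 in 3 lists (smooth muscle, intestine and myeloid cells), and more than 2 in 0 lists. The lists for retina, germ line and pluripotency, and motile cilia had 0 listed members. A gene outside the list was not analysed here, so these counts say nothing of unlisted markers.

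In the heart list MYH6 was called, while NKX2-5, an early cardiac transcription factor, stood at 1614 in trex0108 and 1447 in scramxxx, and GATA4, another, at 1598 in trex0108 and 1620.0 in scramxxx, both not called. In the liver list AGXT was called, while CPS1, the entry enzyme of the urea cycle, stood at 472 in trex0108 and 442 in scramxxx and was not called. In the intestine list CDX1 was joined by MUC2, the gel-forming mucin of goblet cells, at 97.4 in trex0108 and 20.5 in scramxxx. CDX2, the paralog of CDX1, stood at 1367 in trex0108 and 1300.1 in scramxxx, and the stem cell receptor LGR5 at 362 in trex0108 and 346 in scramxxx, both not called. In the skin list KLK7 was called and the desmosomal cadherin DSC1 was not, at 20.3 in trex0108 and 17.7 in scramxxx.

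In the myeloid list CEBPE was joined by CSF3R, the receptor for granulocyte colony-stimulating factor, at 116 in trex0108 and 71.8 in scramxxx, while the integrin ITGAM stood at 90.7 in trex0108 and 98.9 in scramxxx and was not called. In the lymphoid list CD4, the T-cell co-receptor, stood at 120.1 in trex0108 and 19.2 in scramxxx, and the T-cell kinase LCK at 68.6 in trex0108 and 86.7 in scramxxx and was not called. In the smooth muscle list CNN1, a calponin, stood at 174 in trex0108 and 97.9 in scramxxx, and LMOD1, an actin nucleator, at 671 in trex0108 and 529 in scramxxx. Single rises in further lists were TNNT1, a slow muscle troponin, with a log2 ratio of 0.41, and SOX9, a cartilage factor, with 0.88. Another was SCG3, a granin of endocrine cells, with 0.37. SCG3 was called higher in each other target too, with log2 ratios of 0.47 in trex4039, 0.53 in trex5008 and 0.34 in trex8168. Its scramxxx mean, 257, was the lowest of the groups, so a low control mean cannot be told apart from a rise in every target. CGB5, a beta chain of chorionic gonadotropin, stood at 41.7 in trex0108 and 14 in scramxxx, and its reads may be shared with near-identical CGB copies. The lists for kidney, simple epithelium, erythroid cells, endothelium, neurons, neural progenitors, glia and fat had 0 called members in either direction. Their listed members numbered between 1 and 6 per list.

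**Figure D5:**
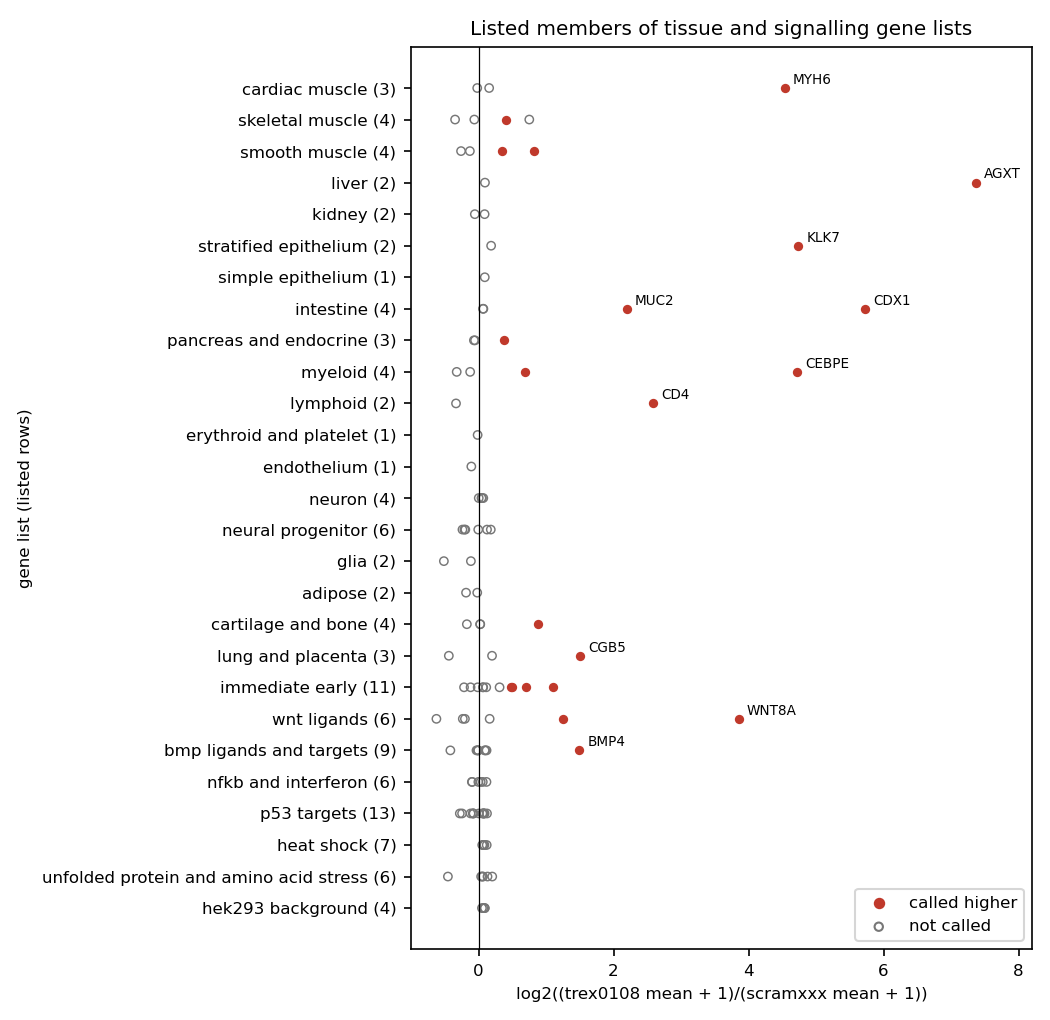
Log2((trex0108 mean + 1)/(scramxxx mean + 1)) of each listed member of the 27 gene lists with at least 1 listed row; filled red points were called higher in trex0108 and open points were not called. The highest called points of the heart, liver, skin and myeloid lists stand at 4.54 (MYH6), 7.37 (AGXT), 4.73 (KLK7) and 4.71 (CEBPE), and the open points of all lists lie between -0.62 and 0.75.

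Among signalling genes, 4 of 11 listed immediate early genes were called higher and 0 lower, beside 5.65% called higher over all listed rows. Such a gene can be listed because it was called in trex0108, so the list itself can raise that share. EGR1, a zinc finger factor induced within minutes of growth factor signals, stood at 1261 in trex0108, 556 in trex4039, 806 in trex5008, 815 in trex8168 and 587 in scramxxx. EGR1 was also called higher in trex5008 and trex8168, with log2 ratios of 0.46 and 0.47, beside 1.10 in trex0108. EGR2 stood at 155 in trex0108 and 95.03 in scramxxx, EGR3 at 294 in trex0108 and 209 in scramxxx, and the synaptic gene ARC at 429 in trex0108 and 305 in scramxxx. Others of the list were not called, such as JUN at 4529 in trex0108 and 4332 in scramxxx, and MYC at 5376 in trex0108 and 5835 in scramxxx. The list's median log2 ratio was 0.11. Of 6 listed WNT ligands, WNT8A and WNT9B were called higher, WNT9B at 83.2 in trex0108 and 34.5 in scramxxx, and the list's median was -0.02. The 2 of 6 is a larger share than the 5.65% called higher over all listed rows, but it rests on 6 rows. A ligand can also be listed because it was called in trex0108.

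BMP4, a ligand that patterns the early embryo, stood at 1746 in trex0108, 585 in trex4039, 499.9 in trex5008, 594 in trex8168 and 619 in scramxxx. It was the single called member of 9 listed BMP ligands, inhibitors and targets, beside 5.65% called higher over all listed rows. The target genes ID1, at 843 in trex0108 and 776 in scramxxx, and ID3, at 2871 in trex0108 and 2696 in scramxxx, were not called. The lists for NF-kB and interferon responses, p53 targets, heat shock, and protein folding and amino acid stress had 6, 13, 7 and 6 listed rows, of which 0 were called higher and 0 lower. Their medians ran between 0.01 and 0.08.

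The 28 falls were shallow. ABR, a GTPase regulator, had a short second row on chromosome 17 (1067751 to 1076242) at 16.9 in trex0108, 14.8 in trex4039, 24.5 in trex5008, 15.9 in trex8168 and 40.5 in scramxxx. UVSSA, a factor of transcription-coupled DNA repair, stood at 18.1 in trex0108, 5.46 in trex4039, 12.6 in trex5008, 18.2 in trex8168 and 37.4 in scramxxx. In both, the scramxxx mean was the highest of the 5. WFIKKN2, a secreted protease inhibitor that binds myostatin, stood at 115 in trex0108, 123 in trex4039, 100.3 in trex5008, 86.5 in trex8168 and 171 in scramxxx, and the kinesin KIF12 at 72.5 in trex0108 and 114 in scramxxx. The authors' deposited table gave adjusted p of 0.00523 for ABR, 0.0356 for UVSSA, 0.00941 for WFIKKN2 and 0.0151 for KIF12. XLOC_019013 stood at 56.4 in trex0108 and 92.4 in scramxxx, and its means in the other targets ran between 59.0 and 60.4. RP11-763B22.7, a pseudogene, stood at 82.3 in trex0108 and 129 in scramxxx, with 101 to 114 in the other targets. KIAA1324, a membrane protein also called EIG121, stood at 62.6 in trex0108 and 96.3 in scramxxx, and the lincRNA RP4-665J23.1 at 197 in trex0108 and 262 in scramxxx. Because all targets share 1 set of control libraries, a control mean that stands high cannot be told apart from a fall in every target.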

How the data were processed

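Per the labels' protocols, the kit for the 15 polyA RNA libraries preserves strand. The submitters' processing notes name hg19 and GRCh37, DESeq2 1.14.1, DESeq, STAR 2.5.1b, Bowtie2 2.2.1, Cufflinks and bedtools, without role or order. The authors deposited a signal for each group, the mean of its normalised counts. They also deposited a log2 fold change, an adjusted p-value and a call score (1, 0 or -1) for every target against control. The call score equals an adjusted p under 0.1 in trex0108, with 0 mismatches. Values per library were not used here, so the planned count model (edgeR, with DESeq2 beside it) was not fitted, and calls rest on the authors' adjusted p at 0.05.

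The log2 ratio of means used a pseudocount of 1. Coordinates are hg19, with starts counted from 1. Chains allowed gaps of up to 100 kb. Named rows are the 12 coding and 8 other largest rises, the 8 largest falls, called neighbours within 100 kb, members of the longest chains (6 planned, 7 by a tie at 4 rows) and called list members. Uncalled neighbours and list members set beside them were chosen after their values were seen. The members and gene lists were chosen with earlier results of these data known. Start windows are RefSeq's. The distance and chain code was tested on simulated positions. Values were computed in Python 3.11.15 with pandas 2.3.3, numpy 2.4.6 and scipy 1.17.1, and figures with matplotlib 3.10.9.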

Additional observations from a re-analysis of the deposited data

How the results depend on the processing

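No paired analysis was possible because the table holds group means and no values per library; for the same reason edgeR, DESeq2 and leaving out a library were not run, and depth and replicate spread stay unknown. Of 71 named rows, 7 (UVSSA, XLOC_019013, KIF12, KIAA1324, RP4-665J23.1, SCG3 and EGR3) were no longer called at an adjusted p under 0.01. Of the 71, 0 changed direction, but another pseudocount or threshold cannot turn a sign, so that count is no evidence of robustness. Rows called higher numbered 634, with 411 among protein-coding rows and 332 among rows listed through another comparison. Rows called lower numbered 28, with 13 at an adjusted p under 0.01, 54 under 0.1 and 17 among protein-coding rows. Rises by at least 1 numbered 235, but 99 on the deposited log2 fold change, which was nearer to 0 in all 662 called rows, and 79 with a mean of at least 50. The share of rows called higher with another such row within 100 kb was 29.0%, and became 36.1% within 250 kb and 21.0% with a mean of at least 50. For merged loci, 18.1% became 14.5% within 50 kb, 26.1% within 250 kb, 21.6% for rises of at least 1 and 13.8% with a mean of at least 50. The 19 chains became 8 for rises of at least 1, 11 with a mean of at least 50 and 11 with overlapping rows merged. The share called higher within 10 kb of a strong rise, 29.7%, became 16.9% when a strong rise was set at a log2 ratio of at least 1. Lists with at least 3 listed rows and a median above 0 numbered 14, and 10 to 15 under the alternatives. The neighbour shares by strong rise, the rows listed through another comparison and a control mean of at least 10 were added after the data were seen, as were the CpG values for rows listed through trex0108 alone and for low control means. Interval bounds cover counting error only.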

Other observations

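Further genes of hormone and developmental signalling, singled out after their values were seen, were also called higher in trex0108. SCT, the gut hormone secretin, stood at 35.6 in trex0108, 3.20 in trex4039, 3.70 in trex5008, 1.86 in trex8168 and 2.91 in scramxxx. CRHBP, the binding protein of corticotropin-releasing hormone, stood at 119.9 in trex0108 and 14.2 in scramxxx, and PTGIR, the prostacyclin receptor, at 72.7 in trex0108 and 9.19 in scramxxx. Among developmental transcription factors, IRX3 stood at 1791 in trex0108 and 514 in scramxxx, TBX4, a limb and lung factor, at 220.3 in trex0108 and 47.3 in scramxxx, and T, the mesoderm factor brachyury, at 414 in trex0108 and 237 in scramxxx. The largest rises at moderate control levels included PLXDC2, at 2783 in trex0108 and 614 in scramxxx, and LRRC4, a synaptic adhesion protein, at 1365 in trex0108 and 329.6 in scramxxx.

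Few highly expressed rows were called: 19 of the 1296 rows with a scramxxx mean above 5000 were called higher (1.47%). The 3 named here were chosen after their values were seen. PABPC1, a poly(A)-binding protein, stood at 40308 in trex0108 and 33298 in scramxxx, a log2 ratio of 0.28. TRIM28, a corepressor of zinc finger proteins, stood at 27205 in trex0108 and 24456 in scramxxx, and the deacetylase HDAC2 at 11727 in trex0108 and 9937 in scramxxx. These rises passed the authors' adjusted p under 0.05 at log2 ratios of 0.15 to 0.28, which shows that the count of 634 mixes folds of very different size.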
